A study of Solanum lycopersicum x Solanum pennellii and Solanum lycopersicum and Solanum pennellii with 305 samples.

Results

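The JASMONATE ZIM-DOMAIN (JAZ) genes of tomato were followed in the root tip of 77 genotypes. The members were 10 gene models, found by matching the first 14 characters of the identifier in the count table, out of 29633 gene models in all. By their identifiers, the members lie on chromosomes 1 (Solyc01g005440), 3 (Solyc03g118540 and Solyc03g122190), 6 (Solyc06g068930), 7 (Solyc07g042170), 8 (Solyc08g036620 and Solyc08g036640), 11 (Solyc11g011030) and 12 (Solyc12g009220 and Solyc12g049400). The deposited tables give neither coordinates nor names for the members, so each is called by its identifier.

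The study looked for loci that change root growth angle and measured RNA in root tips to link such loci with gene expression. The genotypes were 75 introgression lines (ILs), each an M82 background with a segment of the wild species, the wild parent *S. pennellii* (LA0716, called PENN in the labels) and the recurrent parent *S. lycopersicum* cv. M82. All seedlings grew untreated on vertical agar plates, and 7 to 14 tips, each 1 cm long and cut 3 to 4 days after germination, were pooled for a library. M82 had 4 libraries (replicates 1 to 4), PENN had 3 (replicates 1, 3 and 4, with no replicate 2), and over all genotypes 74 had 4 libraries and 3 had 3. The library values of a genotype are listed in the order of its replicate numbers.

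JAZ proteins are repressors of jasmonate signalling. In plants they bind MYC-type transcription factors and hold jasmonate-responsive genes off until the hormone, as jasmonoyl-isoleucine, brings them to the F-box receptor COI1 and they are degraded. Many JAZ genes are themselves switched on by jasmonate, so their transcripts are widely read as markers of recent jasmonate signalling, which follows wounding and touch and also limits root growth. The part that each tomato member plays on its own is not annotated in the sources used here.

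Reads counted on genes ranged from 4174630 to 5659441 per library in PENN, from 683199 to 11338423 in the ILs and from 3078847 to 4835467 in M82. Levels are given as CPM, the read count scaled to the depth of its library, after TMM scaling. They depend on transcript length as well as abundance, so they were compared between genotypes for a gene and not between genes. Each genotype was set against M82 with edgeR's quasi-likelihood test on 19591 genes, and a gene was called where its p, adjusted by Benjamini-Hochberg over all genes, was 0.01 or less. All of these comparisons share the same 4 M82 libraries. In a bulk root tip, a change in the number of cells of a type and a change in RNA per cell cannot be told apart.

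The family divided by how often it was seen. Solyc07g042170, Solyc03g118540, Solyc01g005440 and Solyc06g068930 had reads in every library, with totals of 60930, 77697, 39408 and 25174 reads. Solyc03g122190 had 1976 reads over 296 libraries, with a median of 1.303 CPM. Solyc12g009220 had 517 reads over 211 libraries, with a median of 0.243 CPM.

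The other 4 members were near or at the limit of detection and did not pass the filter on low counts. Solyc12g049400 had 274 reads in 168 libraries and Solyc11g011030 had 66 reads in 60. Solyc08g036640 had 15 reads in 7 libraries, and Solyc08g036620 had 3 reads in 3. Both chromosome 8 members had 0 reads in PENN, which allows a level of up to 0.195 CPM, and 0 reads in M82, which allows up to 0.181 CPM. The tests that follow therefore cover 6 of the 10 members. Solyc12g009220 passed the filter on only 5 libraries at or above 2.32 CPM, 2 of them from PENN, so its tests lean on the samples in which it was high.

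**Figure D1:**
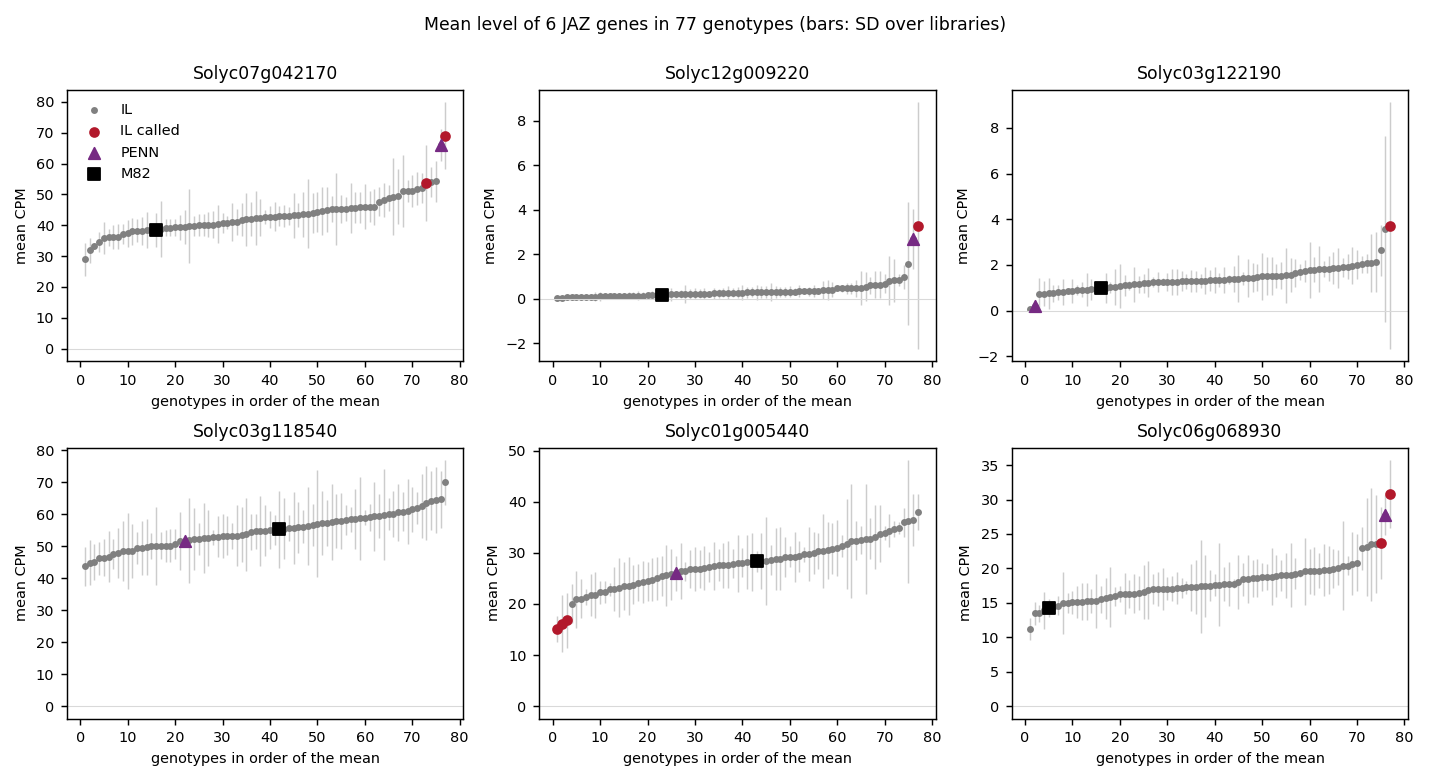
Mean CPM of the 6 tested JAZ genes (y axis) in 77 genotypes placed in order of the mean (x axis), with PENN as a triangle, M82 as a square, ILs as grey dots and called ILs in red; bars are the SD over the libraries of a genotype. The means form gradual slopes, with PENN in position 2 from the top for Solyc07g042170, Solyc12g009220 and Solyc06g068930 and next to the bottom for Solyc03g122190.

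Between the parents, 3 of the 6 tested members were called, and all 3 were higher in PENN than in M82. Over all genes tested 35.6% were called in this comparison, so the count itself does not set the family apart. Solyc07g042170, Solyc06g068930 and Solyc12g009220 were the called members. Solyc12g009220 entered the tested set partly through its PENN libraries, so its place in this count is a description only. Solyc03g118540 and Solyc01g005440 were not called, and Solyc03g122190 was lower in PENN without passing the threshold. The parents are of different species, and the part of read mapping in the differences between them was not tested.

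Solyc07g042170 stood at 63.6, 71.9 and 62.3 CPM in PENN, against 46.4, 37.6, 34.2 and 35.7 CPM in M82. The lowest PENN library was above the highest M82 library. The fitted difference was 0.78 on the log2 scale (standard error 0.15, adjusted p = 1.4e-06, edgeR's quasi-likelihood test), and PENN was higher in all 3 pairs of libraries with the same replicate number.

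Solyc06g068930 stood at 31.1, 26.01 and 26.2 CPM in PENN, against 13.4, 13.9, 13.4 and 16.2 CPM in M82. The groups did not overlap, and the M82 libraries lay close together. The fitted difference was 0.95 on the log2 scale (standard error 0.20, adjusted p = 9.7e-06, edgeR), with PENN higher in 3 of 3 same-numbered pairs.

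Solyc12g009220 stood at 4.01, 2.76 and 1.33 CPM in PENN, against 0.320, 0.199, 0 and 0.210 CPM in M82. All PENN libraries were above all M82 libraries, from 39 reads in PENN and 3 reads in M82. The ratio of the read rates was 14.0, with an exact 95% interval of 4.46 to 71.0 that covers counting error only. On the log2 scale the fitted difference was 3.64 (standard error 1.06, adjusted p = 5e-06, edgeR).

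Solyc03g122190 ran the other way. It had 0, 0.394 and 0.166 CPM in PENN, against 1.28, 0.795, 0.821 and 1.05 CPM in M82. The groups did not overlap, but the PENN libraries held 3 reads in all and the M82 libraries 16, a rate ratio of 0.202 (exact 95% counting interval 0.0378 to 0.707). The comparison missed the threshold (log2 fold change -2.16, standard error 1.096, adjusted p = 0.036, edgeR) and passed only when the threshold was set at 0.05.

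The remaining pair of tested members overlapped between the parents. Solyc03g118540 had 51.6, 51.8 and 51.7 CPM in PENN, against 54.1, 39.7, 58.3 and 69.0 CPM in M82. The PENN values fell inside the M82 range, and the log2 difference was -0.09 (standard error 0.17, adjusted p = 0.68, edgeR). Solyc01g005440 had 24.0, 29.9 and 24.0 CPM in PENN, against 28.8, 25.4, 29.0 and 30.1 CPM in M82, a log2 difference of -0.12 (standard error 0.19, adjusted p = 0.64, edgeR).

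A line whose introgression covers a member carries the wild copy of that gene in an otherwise M82 plant. Such lines were found from the position labels in the deposited comparison table, as those in which the nearest labelled genes on both sides of the member are labelled cis. Coverage is thus inferred. The gene models between those labelled genes, the member included, numbered from 1 (Solyc11g011030 in IL11-1) to 24 (Solyc07g042170 in IL7-4). Inside an introgression the reads were mapped to *S. pennellii* sequence and outside it to M82 sequence, and the part of that difference in the values was not tested.

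Solyc06g068930 was called higher than M82 both in PENN and in a line with its wild copy. In IL6-2, which covers it, the libraries stood at 27.1, 16.6, 28.0 and 23.2 CPM, against the M82 values of 13.4 to 16.2 CPM. The lowest IL6-2 library, replicate 2, was just above the highest M82 library. In this gene 20 ILs did not overlap M82, counted in either direction, and the share over all genes was not counted. The log2 fold change over M82 was 0.71 (standard error 0.20, adjusted p = 0.0064, edgeR), in a comparison that called 7.58% of the genes tested. The call stood close to the threshold. It was lost in 9 of 16 alternatives, of which 6 left out a replicate. Those were IL replicate 1 (adjusted p = 0.024), 3 (0.069) and 4 (0.011) and M82 replicate 1 (0.017), 2 (0.018) and 3 (0.02), where the log2 fold change stayed between 0.62 and 0.71. The rest were IL6-2 and M82 fitted alone by edgeR (0.75, adjusted p = 0.019) or DESeq2 (0.74, adjusted p = 0.018), and an average of ILs from other chromosomes as reference. Against that average, taken as known, the log2 difference was 0.41 (adjusted p = 0.019, edgeR).

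IL6-2 was not distinguished from PENN in this gene. The log2 difference of IL6-2 over PENN was -0.24 (standard error 0.20, adjusted p = 0.32, edgeR), where 34.7% of the genes tested were called. The standard error leaves room for a difference in either direction.

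Solyc07g042170 gave the opposite arrangement. In IL7-4, which covers it, the libraries stood at 39.7, 39.9, 32.1 and 33.3 CPM, and in IL7-4-1, which covers it too, at 40.3, 33.5, 35.8 and 39.3 CPM. Both lines overlapped M82 (34.2 to 46.4 CPM), with log2 fold changes over M82 of -0.08 (standard error 0.14) and -0.05 (standard error 0.14) and an adjusted p of 1.0 in each. Neither line overlapped PENN (62.3 to 71.9 CPM). Over PENN, the log2 fold change of IL7-4 was -0.86 (standard error 0.15) with an adjusted p of 1.1e-07, and that of IL7-4-1 was -0.83 (standard error 0.15) with an adjusted p of 3.1e-07 by edgeR, where 34.1% of the genes tested were called in each comparison.

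Solyc12g009220 lay between the parents in IL12-2, which covers it. The line had 0.788, 1.23, 0.626 and 0.736 CPM from 15 reads, all above the 4 M82 libraries and below the 3 PENN libraries. Over M82 the rate ratio was 4.81 (exact 95% counting interval 1.36 to 25.9), but the gene was not called (log2 fold change 2.11, standard error 1.11, adjusted p = 0.29, edgeR). Against PENN it differed by -1.54 on the log2 scale (standard error 0.56, adjusted p = 0.0094), where 36.8% of the genes tested were called. This call was lost without replicate 1 (adjusted p = 0.15) and without replicate 3 (adjusted p = 0.056). A level above M82 was not particular to IL12-2. IL10-2, which does not cover the gene, had 0.333, 1.12, 0.822 and 1.59 CPM, also above every M82 library.

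Solyc03g122190 was nearly silent in the line with its wild copy. IL3-5 had 0, 0.137, 0.210 and 0 CPM, 2 reads in all, and was the lowest of the 77 genotypes, next to PENN. Against the 16 M82 reads the rate ratio was 0.108 (exact 95% counting interval 0.0121 to 0.461). The log2 fold change over M82 was -2.92 (standard error 1.2997, adjusted p = 0.03, edgeR). It passed the threshold of 0.01 only when the reference was the average of ILs from other chromosomes (adjusted p = 3.8e-05, edgeR). That test took the average as known, without sampling error of its own, so its p is not comparable with that over M82.

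The other covered members gave no difference that was called. Solyc03g118540 averaged 64.4 ± 10.33 CPM in IL3-4 and 59.9 ± 14.3 CPM in IL3-5 (SD, n = 4 each), against a mean of 55.3 CPM and a range of 39.7 to 69.0 CPM in M82. Solyc01g005440 averaged 26.9 ± 4.29 CPM in IL1-1-3, against 28.3 ± 2.01 CPM in M82 (SD, n = 4 each). Of the scarce members, Solyc11g011030 had 0 reads in IL11-1 and in IL11-2, Solyc08g036620 and Solyc08g036640 had 0 reads in IL8-1 and in IL8-1-1, and Solyc12g049400 had 0 reads in IL12-2 and 2 reads in IL12-3. A count of 0 in these lines allows levels of up to 0.125 to 0.185 CPM.

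**Figure D2:**
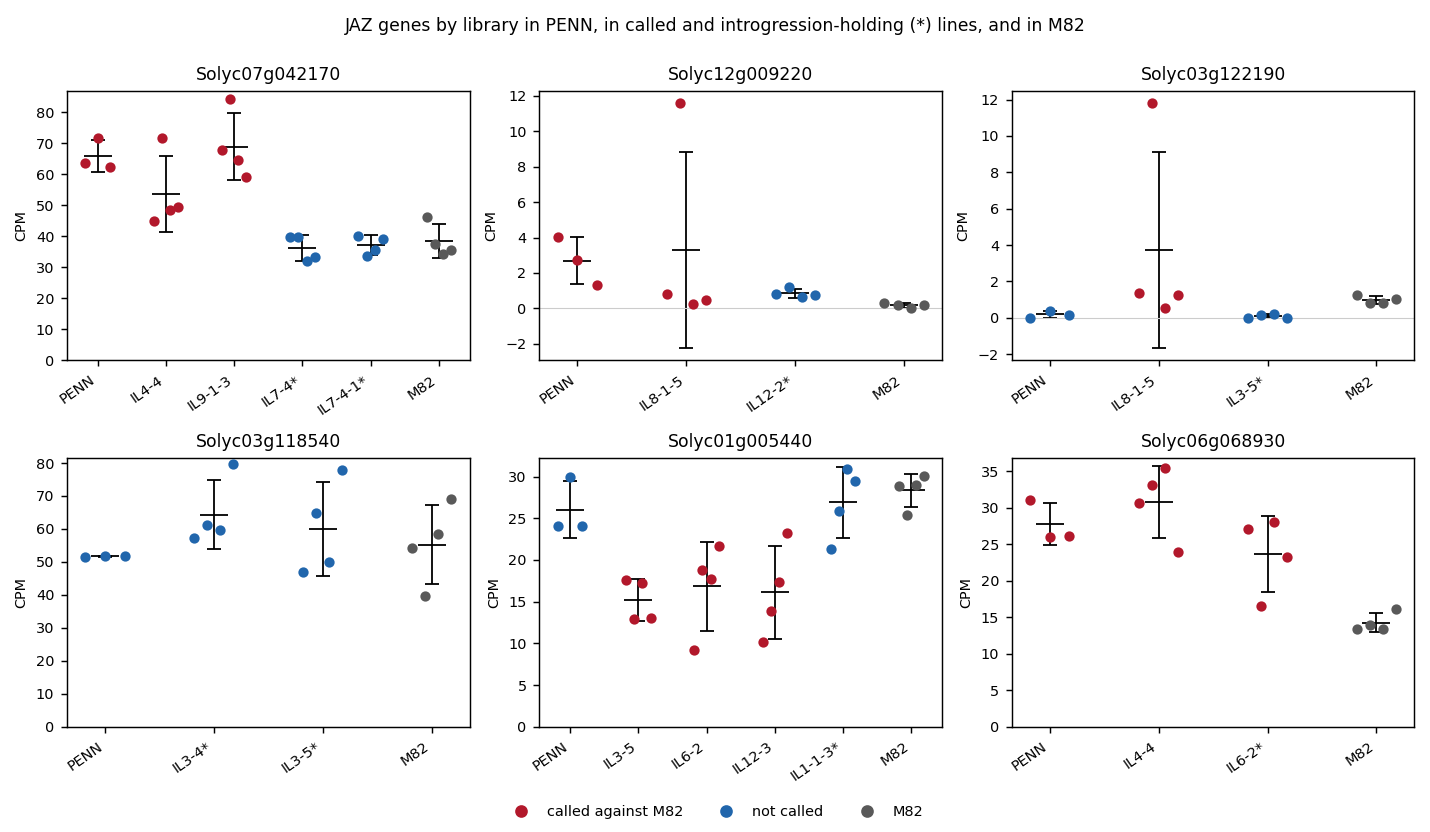
CPM of the 6 tested JAZ genes (y axis) in single libraries (dots) of PENN, of the ILs that were called or that cover the gene (marked with an asterisk), and of M82; horizontal marks and bars are the mean and SD. In Solyc07g042170 the lines that cover the gene sit with M82 at 32.1 to 40.3 CPM, in Solyc06g068930 IL6-2 sits above M82, and in IL8-1-5 a single library lies far above the other 3.

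Across the 75 ILs, 9 of 450 member and line combinations were called, which is 2.0% of them, and 1.47% of the combinations were called over all genes. The share was near that of all genes. The calls fell in 6 lines, 6 of them higher and 3 lower than M82, and none of the lines covered the called member except IL6-2 for Solyc06g068930. Lines that did not overlap M82, in either direction, numbered 8 for Solyc07g042170, 20 for Solyc06g068930 and 15 for Solyc01g005440. They numbered 14 for Solyc03g122190, 4 for Solyc12g009220 and 0 for Solyc03g118540, and the share over all genes was not counted.

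IL4-4 was higher in 2 members, in a line where 20.0% of all genes tested were called. Solyc06g068930 stood at 30.6, 33.1, 35.4 and 24.0 CPM in IL4-4, against 13.4 to 16.2 CPM in M82, and was higher there than in any other genotype by its mean. The groups did not overlap (log2 fold change 1.101, standard error 0.18, adjusted p = 1e-06, edgeR), and the call held in all 16 alternatives. Solyc07g042170 stood at 44.9, 71.8, 48.6 and 49.4 CPM in IL4-4, against 34.2 to 46.4 CPM in M82. Its replicate 2 was far above the other 3 libraries, and the groups overlapped (log2 fold change 0.49, standard error 0.14, adjusted p = 0.0038). Without replicate 2 of the ILs the log2 fold change was 0.30 (adjusted p = 0.096), and the call was also lost without replicate 4 (adjusted p = 0.017) and without M82 replicate 2 (0.013), 3 (0.026) or 4 (0.018), where the log2 fold change stayed between 0.42 and 0.48. It was lost as well without a filter on low counts (adjusted p just over the threshold, 0.01 when rounded) and with IL4-4 and M82 fitted alone by edgeR (0.024) or DESeq2 (0.027), at log2 fold changes between 0.45 and 0.49.

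Solyc07g042170 was highest of all genotypes in IL9-1-3, at 67.9, 84.3, 64.6 and 59.3 CPM, against 34.2 to 46.4 CPM in M82. No library overlapped, and IL9-1-3 was the higher in 4 of 4 same-numbered pairs. The fitted difference was 0.84 on the log2 scale (standard error 0.14, adjusted p = 1.5e-06, edgeR), in a line where 2.84% of the genes tested were called. Of 16 alternatives the call was lost in 1, the quasi-likelihood fit of IL9-1-3 and M82 alone (log2 fold change 0.84, adjusted p = 0.085), while DESeq2 on the same libraries kept it (adjusted p = 0.00051). In the order of the means, IL9-1-3 (69.0 ± 10.8 CPM, SD, n = 4) and PENN (66.0 ± 5.196 CPM, n = 3) came first and did not differ beyond their spread, while the step from PENN to the next line, IL2-6 (54.2 ± 6.55 CPM, n = 4), was larger than the SD of either.

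Solyc01g005440 was called in 3 lines and was lower in each of them, with no call between the parents. In IL3-5 it had 17.5, 12.9, 17.2 and 13.1 CPM, against 28.8, 25.4, 29.0 and 30.1 CPM in M82. In IL12-3 it had 10.16, 13.8, 17.3 and 23.3 CPM, and in IL6-2 it had 9.18, 18.8, 17.7 and 21.6 CPM. Every library of these lines was below every M82 library, and the lines were the lowest 3 of the 77 genotypes. In this gene 15 ILs did not overlap M82, counted in either direction, and the share over all genes was not counted.

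The log2 fold change of Solyc01g005440 was -0.90 in IL3-5 (standard error 0.19, adjusted p = 0.00026), -0.77 in IL12-3 (standard error 0.19, adjusted p = 0.0012) and -0.75 in IL6-2 (standard error 0.20, adjusted p = 0.0041, edgeR). Over all genes tested, 3.53% were called in IL3-5, 15.5% in IL12-3 and 7.58% in IL6-2. Library depths ran from 2599663 to 7053983 reads in IL3-5, 2299651 to 4069655 in IL12-3 and 1756911 to 3227394 in IL6-2. The median over all libraries was 4303828 reads, and the part of depth in these values was not tested. The call in IL3-5 held in all 16 alternatives. That in IL12-3 was lost without replicate 1 (adjusted p = 0.016), and that in IL6-2 without replicate 1 (0.063), replicate 3 (0.022), M82 replicate 3 (0.016) or M82 replicate 4 (0.016). Both were also lost when the line and M82 were fitted alone by edgeR (0.018 in IL12-3 and 0.03 in IL6-2), and that in IL6-2 by DESeq2 as well (0.019). Without replicate 1 the log2 fold change was -0.63 in IL12-3 and -0.56 in IL6-2, and in the other fits that lost the call in IL6-2 it stayed between -0.78 and -0.71, close to the full value. The gene lies on chromosome 1, whereas these lines carry segments of chromosomes 3, 12 and 6.

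IL8-1-5 was called in 2 scarce members, and both calls rested on its replicate 2. Only 0.439% of all genes were called in this line. Solyc12g009220 had 0.814, 11.6, 0.257 and 0.493 CPM in IL8-1-5, against 0 to 0.320 CPM in M82, and Solyc03g122190 had 1.36, 11.8, 0.514 and 1.23 CPM, against 0.795 to 1.28 CPM in M82. Replicate 2 was far above the other 3 libraries in both genes, and those 3 overlapped M82.

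With all libraries the log2 fold change in IL8-1-5 was 4.14 for Solyc12g009220 (standard error 1.04, adjusted p = 4.5e-07) and 2.04 for Solyc03g122190 (standard error 0.51, adjusted p = 0.0027, edgeR). Without replicate 2 of this line neither was called: the adjusted p was 0.94 for Solyc12g009220, whose rate ratio was then 2.85 (exact 95% counting interval 0.608 to 17.6) from 6 reads, and 1.0 for Solyc03g122190. The call of Solyc03g122190 was also lost without M82 replicate 2 (adjusted p = 0.034), 3 (0.018) or 4 (0.015). It was lost as well with IL8-1-5 and M82 fitted alone by DESeq2 (log2 fold change 1.94, adjusted p = 0.72). Without replicate 2 of IL8-1-5, 7 combinations were called in all the lines.

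**Figure D3:**
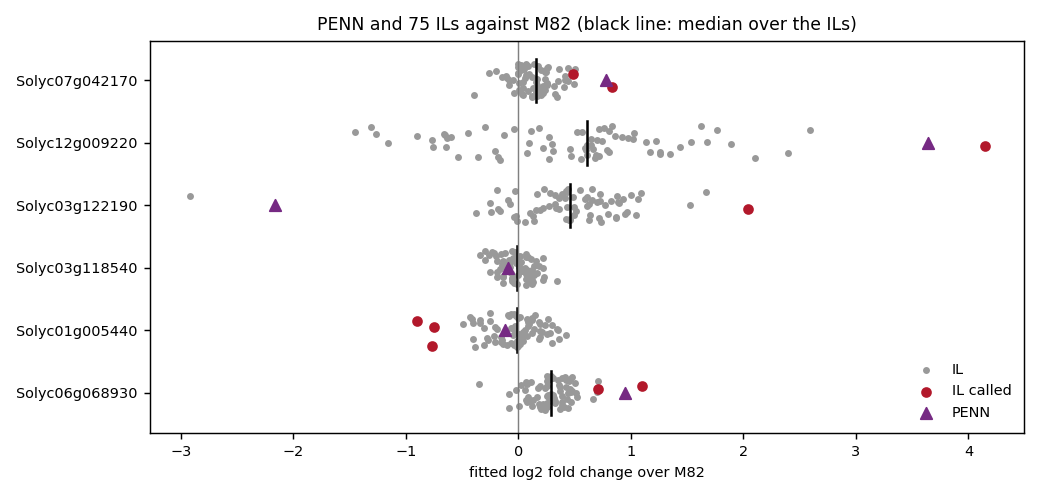
Fitted log2 fold change over M82 (x axis) of the 6 tested JAZ genes (y axis) in PENN (triangles) and in the 75 ILs (dots, red where called), with the median over the ILs as a black line. The ILs spread to both sides of 0 for Solyc03g118540 and Solyc01g005440 and mostly to the right for Solyc06g068930, whose median is 0.29.

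M82 itself was low in several members. In Solyc06g068930, 71 of the 75 ILs had a mean above the 14.2 ± 1.32 CPM of M82 (SD, n = 4), the median log2 fold change of the ILs over M82 was 0.29, and M82 took position 73 of 77. In Solyc07g042170, 60 ILs lay above M82 and the median was 0.16. In Solyc03g122190, 61 ILs lay above M82 and the median was 0.46. In Solyc12g009220, where M82 held 3 reads, 53 ILs lay above M82 and the median was 0.61. Solyc03g118540 and Solyc01g005440, with 35 and 34 ILs above M82 and medians of -0.01 and -0.01, showed no such offset. Every fold change over M82 uses these same 4 libraries.

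When the fit held a replicate block, 13 combinations were called in place of 9, and all 4 that were gained belonged to Solyc06g068930. They were higher than M82 in IL2-4 (log2 fold change 0.69, adjusted p = 0.0075), IL7-2 (0.69, adjusted p = 0.0098), IL7-4-1 (0.68, adjusted p = 0.0067) and IL9-1-3 (0.64, adjusted p = 0.0089, edgeR). The share over all genes with the block is not given here, so the gain is not read as a trait of the family. With the average of ILs from other chromosomes in place of M82, 20 combinations were called, 11 higher and 9 lower, where M82 as the reference gave 6 higher and 3 lower. That test took the average as known, without sampling error of its own, so its calls and p-values are not comparable with those over M82. IL6-2 was not called for Solyc06g068930 in that setting (log2 difference 0.41, adjusted p = 0.019, edgeR). In that setting Solyc06g068930 was lower in IL3-5 (log2 difference -0.67, adjusted p = 0.00018), the lowest genotype, with 8.80 to 12.33 CPM in its 4 libraries. Solyc07g042170 was lower in IL12-2 (log2 difference -0.55, adjusted p = 4.2e-05), IL4-3 (-0.42, adjusted p = 0.00043) and IL3-5 (-0.35, adjusted p = 0.0067, edgeR).

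Among the well-covered members, Solyc03g118540 had the narrowest range of line means. Its line means ran from 43.7 CPM in IL2-3 to 70.0 CPM in IL11-4, a ratio of 1.6, against ratios of 2.39 for Solyc07g042170, 2.51 for Solyc01g005440 and 2.75 for Solyc06g068930. In 0 of 75 lines was it called by edgeR's quasi-likelihood test, with an unadjusted p under 0.05 in 2 lines, and DESeq2 on each line with M82 called it in 0 lines.

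Neighbours in the order of the genotype means are close by construction, since the means are sorted. Among 76 neighbouring pairs per gene, the difference of the means exceeded the larger SD of the pair only for PENN over IL2-6 in Solyc07g042170 and for IL12-2 over IL3-5 in Solyc06g068930. At the top of Solyc01g005440 stood IL8-3 (38.0 ± 3.57 CPM), IL7-4-1 (36.4 ± 5.02 CPM) and IL9-3-2 (36.2 ± 12.0 CPM, SD, n = 4 each). Solyc03g118540 was topped by IL11-4 (70.0 ± 6.98 CPM), IL9-3-2 (64.6 ± 8.86 CPM) and IL3-4 (64.4 ± 10.33 CPM), and Solyc03g122190, after IL8-1-5 and IL2-2, by IL7-4-1 (2.64 ± 1.12 CPM, SD, n = 4 each). At the bottom of Solyc07g042170 stood IL3-5 (33.4 ± 0.941 CPM), IL4-3 (31.9 ± 4.07 CPM) and IL12-2 (28.9 ± 5.31 CPM, SD, n = 4 each).

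A pair of single libraries stood apart in 3 of the 6 scarce members. IL8-1-5 replicate 2 held 56 of the 517 reads of Solyc12g009220, which is 10.8%, 57 of the 1976 reads of Solyc03g122190, which is 2.88%, and 7 of the 15 reads of Solyc08g036640. IL2-2 replicate 3 held 19, 32 and 3 reads of the same genes, or 3.68%, 1.62% and 20.0%. Of the other scarce members, Solyc12g049400 had 1 read in IL8-1-5 replicate 2 and 0 in IL2-2 replicate 3, and Solyc11g011030 and Solyc08g036620 had 0 reads in both. These libraries ranked first and second of all libraries in each of the 3 genes.

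The sister libraries of the same lines were low. In IL2-2, Solyc12g009220 had 0.247, 0, 5.73 and 0.317 CPM and Solyc03g122190 had 1.48, 1.26, 9.65 and 1.90 CPM, with replicate 3 far above the others in both genes. Relative to the mean of the 3 sister libraries, Solyc12g009220 was 22.2 times higher in IL8-1-5 replicate 2 and 30.5 times higher in IL2-2 replicate 3, and Solyc03g122190 was 6.24 times higher in IL2-2 replicate 3. In IL8-1-5 it had 57 reads in replicate 2 and 12 in the 3 sister libraries together. Solyc08g036640 had 0 reads in all of the sister libraries. Outside these libraries the highest value of Solyc12g009220 was 4.01 CPM, in PENN replicate 1, and that of Solyc03g122190 was 3.99 CPM, in a library of IL5-5 with 3 reads of the gene.

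The well-covered members did not share this pattern. Set against their sister libraries, Solyc07g042170, Solyc03g118540, Solyc01g005440 and Solyc06g068930 were at 1.12, 0.802, 1.09 and 0.808 times the mean in IL8-1-5 replicate 2 and at 1.01, 0.93, 0.976 and 1.08 times the mean in IL2-2 replicate 3. Over all genes, IL8-1-5 replicate 2 was the highest library in 32 of 19591 genes and IL2-2 replicate 3 in 57, where the median library was highest in 23 genes and the most extreme in 2075. The genes whose highest pair of libraries was this one numbered 2 of 19591, and both were these members, which is also how the libraries came to be singled out. Their depths, 4874209 and 3295407 reads, lay within the range of the others. Since the libraries were chosen for these values, the values are a description.

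IL2-2 was not called against M82 with all libraries. Both genes were called there when replicate 2 of the ILs was left out (adjusted p = 0.0039 for Solyc12g009220 and 0.0021 for Solyc03g122190, edgeR). The ratio of the Solyc12g009220 read rates in IL2-2 and M82 was 6.56 with IL2-2 replicate 3 (exact 95% counting interval 1.96 to 34.3) and 0.768 without IL2-2 replicate 3 (0.0642 to 6.71). The 15 reads of Solyc08g036640 fell in 7 libraries, each of which also held reads of Solyc12g009220 and Solyc03g122190. Over all libraries, 69.2% held reads of Solyc12g009220 and 97.0% held reads of Solyc03g122190, so the overlap is read against these shares. Whether reads are shared between similar family members was not tested, as no sequence was used here.

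**Figure D4:**
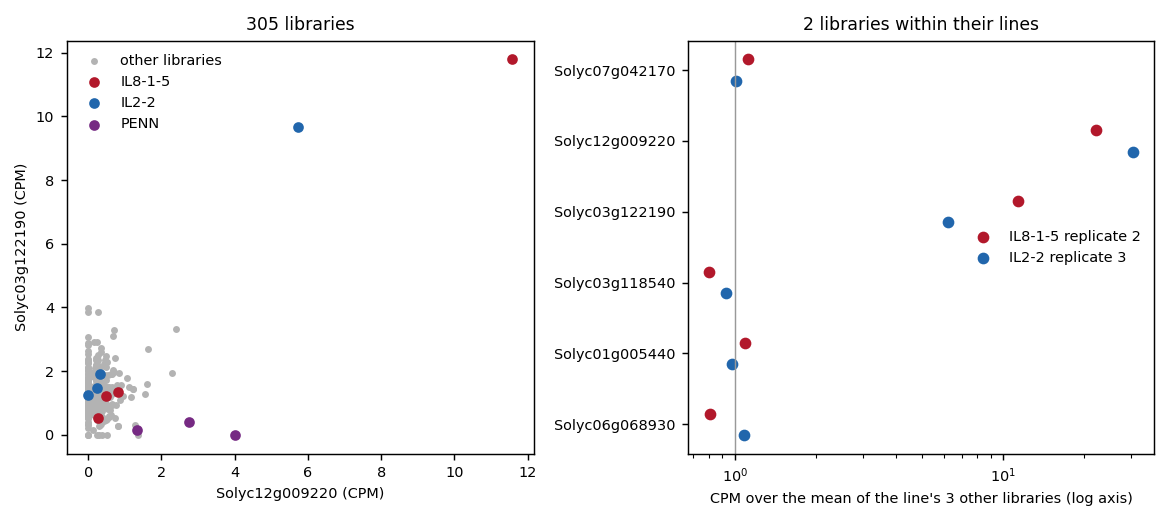
Left, CPM of Solyc12g009220 (x axis) and Solyc03g122190 (y axis) in all libraries, with those of IL8-1-5, IL2-2 and PENN coloured; right, CPM of the 6 tested JAZ genes in IL8-1-5 replicate 2 and IL2-2 replicate 3 over the mean of the 3 other libraries of the line (x axis, logarithmic). A single library of each line lies apart, at 11.6 and 11.8 CPM and at 5.73 and 9.65 CPM, while the other 4 genes stay between 0.802 and 1.12 times the mean.

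The replicate numbers, B2 to B5 in the columns of the count table and 1 to 4 in the labels, mark growth cycles 2 weeks apart that were also pooled and sequenced apart. Growth cycle and sequencing pool cannot be told apart. A term for the number was significant for 5 of the 6 tested members (edgeR's quasi-likelihood F test with genotype in the model, adjusted p of at most 0.01), and 69.4% of all genes tested were called, so most genes differed and the family's share is read against that. Solyc03g122190 was the exception (adjusted p = 0.38).

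Solyc03g118540, which was called in no line, had the lowest adjusted p between numbers (1.4e-20). Its mean was 56.1 ± 8.50 CPM in replicate 1, 48.3 ± 7.34 in replicate 2, 54.0 ± 7.72 in replicate 3 and 60.6 ± 7.56 in replicate 4 (SD over 77, 75, 76 and 77 libraries). Replicate 2 was the lowest of the 4 libraries in 48 of the 74 complete genotypes and replicate 4 the highest in 39. On the log2 scale, replicate 2 lay 0.23 below the mean of the other numbers (-0.23, standard error 0.02, adjusted p = 7.7e-17) and replicate 4 lay 0.20 above it (standard error 0.02, adjusted p = 8.1e-14, edgeR). The 4 M82 libraries were also lowest in replicate 2 and highest in replicate 4, with 39.7 CPM in replicate 2 and 69.0 CPM in replicate 4.

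Solyc07g042170 and Solyc06g068930 were highest in replicate 1. Solyc07g042170 averaged 46.0 ± 8.33 CPM there and 41.1 ± 9.38, 42.8 ± 7.77 and 42.7 ± 6.58 CPM in replicates 2, 3 and 4 (SD, 77, 75, 76 and 77 libraries), a log2 difference of 0.12 between replicate 1 and the mean of the others (standard error 0.02, adjusted p = 2e-05, edgeR). Solyc06g068930 averaged 19.7 ± 4.79, 16.8 ± 3.42, 17.6 ± 4.71 and 17.6 ± 3.32 CPM in replicates 1 to 4, a log2 difference of 0.18 for replicate 1 (standard error 0.03, adjusted p = 1.5e-06). In replicate 1 both were above the mean of the other numbers in most complete genotypes, 54 and 51 of 74. Replicate 2 was lower than the mean of the others in both genes, by a log2 difference of -0.09 in Solyc07g042170 (adjusted p = 0.0017) and -0.10 in Solyc06g068930 (adjusted p = 0.0073, edgeR). Without replicate 1, neither gene passed the threshold between the remaining numbers (adjusted p = 0.038 and 0.22).

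Solyc01g005440 differed less (26.8, 26.6, 28.8 and 28.5 CPM in replicates 1 to 4, adjusted p = 0.0039 over all numbers), and no single number passed the threshold against the mean of the others. It was no longer called without replicate 2 (adjusted p = 0.024) or replicate 3 (adjusted p = 0.019).

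In Solyc12g009220 the numbers that passed the threshold differed with and without the pair of single libraries. Replicate 2 was above the mean of the others with all libraries (log2 difference 0.61, standard error 0.16, adjusted p = 0.00055) and not past the threshold without IL8-1-5 replicate 2 and IL2-2 replicate 3 (log2 difference 0.35, adjusted p = 0.049). Without them replicate 1 was higher (0.46, adjusted p = 0.0095) and replicate 3 lower (-0.60, adjusted p = 0.003, edgeR). The gene had reads in 60 of 77, 54 of 75, 46 of 76 and 51 of 77 libraries of replicates 1 to 4. Median depths were 4089142, 4639577, 4033691 and 4448449 reads in replicates 1 to 4.

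**Figure D5:**
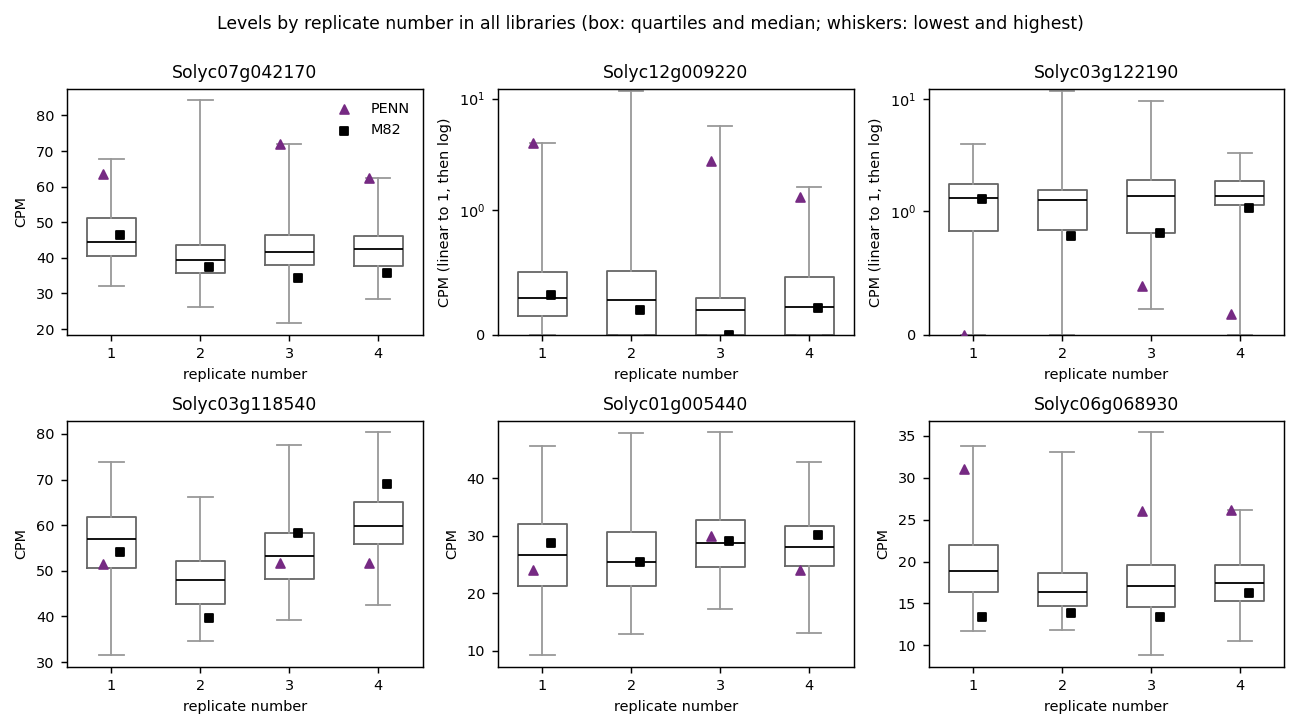
CPM of the 6 tested JAZ genes (y axis) by replicate number (x axis) over all libraries, as boxes of the quartiles and median with whiskers to the lowest and highest library, with PENN as triangles and M82 as squares; the y axis is linear up to 1 and logarithmic above it for Solyc12g009220 and Solyc03g122190. Solyc03g118540 is lowest in replicate 2 (mean 48.3 CPM) and highest in replicate 4 (mean 60.6 CPM), and M82 lies below the median box line of Solyc06g068930 in every number.

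Across genotypes, most pairs of members had low correlations. Solyc12g009220 and Solyc03g122190 had few reads per library, which limits any r that includes them, so a low r there does not show independence. Of the 15 pairs among the 6 tested members, Solyc07g042170 and Solyc06g068930 had the closest genotype means (Pearson r = 0.56 over 77 genotypes, log2 CPM with 0.5 added), and the same pair led among deviations of libraries from their genotype mean (r = 0.34 over all libraries). Solyc12g009220 and Solyc06g068930 followed at r = 0.32 over genotypes and r = 0.02 within them. All other pairs lay between -0.17 and 0.24 over genotypes. Within genotypes, the other pairs of well-covered members lay between -0.015 (Solyc01g005440 and Solyc06g068930) and 0.266 (Solyc07g042170 and Solyc01g005440). Solyc12g009220 and Solyc03g122190 gave r = 0.24 within genotypes and r = 0.06 without the 2 single libraries. Libraries share growth cycles and sequencing pools, the lines share the M82 background, and these values are a description.

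Outside the family, the gene whose genotype means were most like the mean of the standardised members was Solyc02g079750 (r = 0.63 over 77 genotypes). It was followed by Solyc01g097880 (0.62), Solyc10g005060 (0.62), Solyc03g005640 (0.61) and Solyc04g055170 (0.60). For single members the closest genes were Solyc04g078290 for Solyc07g042170 (0.62), Solyc03g116700 for Solyc12g009220 (0.62), Solyc03g121600 for Solyc03g122190 (0.62), Solyc01g109890 for Solyc03g118540 (0.61) and Solyc04g081960 for Solyc06g068930 (0.61). The closest of all was Solyc09g082060 for Solyc01g005440 (r = 0.84 over 77 genotypes). These genes have the highest r among the 19591 genes tested, members left out. How high the maximum of such a search usually runs was not tested. By their identifiers, Solyc03g121600 and Solyc03g122190 lie on the same chromosome.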

How the data were processed

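RNA was sequenced from root tips as single-end reads of 50 bp. After trimming, the authors mapped with BWA to a coding-sequence reference of M82 sequence with *S. pennellii* sequence inside the introgression of each line, and counted reads per gene with SAMtools (the sources used here give no versions). The deposited counts are not normalized, and all tests start from them. A deposited table of the authors' own comparisons holds fold changes and p-values, which were not used, and a cis or trans text label, which was used only to find the lines whose introgression covers a member. Another 9 per-sample columns of the count table matched no sample and were left unused. Labels number the libraries 1 lower than the columns do.

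Analysis used edgeR 4.0.16 under R 4.3.3. TMM factors ran between 0.818 and 1.17, filterByExpr kept 19591 of 29633 genes, and the quasi-likelihood model over all libraries had 1 term, the genotype, and a negative binomial dispersion of 0.0235. Adjusted p-values are Benjamini-Hochberg values over all genes within a comparison. For the replicate numbers the model held genotype and number. The code was tested on simulated data. Library depth limits the scarce members, since 1 CPM is a few reads per library. No libraries held identical values (highest correlation of log2 counts between libraries 0.992), and the libraries are separate growth cycles.

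The numbers pair the libraries, since the study's methods give each number its own growth cycle and sequencing pool. Residuals around genotype averages had a mean r of 0.091 for same-numbered libraries and -0.03 for the rest.

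The members and lists were chosen with earlier results of these data known. The genes named are the 10 members, with library values for every called combination, the lines covering a member, the 3 highest and lowest genotypes and the genes with the most similar genotype means. No gene names are paired with identifiers in the sources used here, so tissue markers and a list of further jasmonate genes were not used here. The comparisons with PENN and the fits without IL8-1-5 replicate 2 and IL2-2 replicate 3 were added after the data were seen. Alternatives were DESeq2 1.42.0 and its size factors, other filters, limma-voom (limma 3.58.1) for the replicate numbers, fits of 1 genotype and M82, a replicate block, an average of ILs from other chromosomes as reference, a threshold of 0.05 and omission of each replicate. Omitting a number removed it from every genotype but M82, or from M82 alone. The average of ILs was taken as known, without an error of its own.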

Additional observations from a re-analysis of the deposited data

Results flagged for a closer look

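Among 25 groups of 4 libraries whose values were examined for a library lying apart (gap to the nearest over the range above Dixon's 95% critical value), 5 held such a library. Chance alone marks about 1 in 20 groups, but the groups were not picked at random, so the 5 of 25 cannot be read against it. Solyc12g009220 in IL8-1-5 replicate 2 was 11.58 CPM, with the other libraries between 0.257 and 0.814 CPM. Solyc03g122190 in the same library was 11.79 CPM, with the others between 0.514 and 1.36 CPM. Solyc03g122190 in IL2-2 replicate 3 was 9.652 CPM, with the others between 1.26 and 1.90 CPM, and Solyc12g009220 in the same library was 5.731 CPM, with the others between 0 and 0.317 CPM. These 4 groups come from 2 libraries and are not independent, the IL2-2 groups entered the examination because of these values, and the IL8-1-5 groups entered as calls that rested on replicate 2. Solyc07g042170 in IL4-4 replicate 2 was 71.78 CPM, with the others between 44.9 and 49.4 CPM.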

How the results depend on the processing

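The 3 calls of PENN over M82 held in every alternative in which the gene was tested, with log2 fold changes of 0.72 to 0.88 for Solyc07g042170, 3.33 to 4.06 for Solyc12g009220 and 0.92 to 1.04 for Solyc06g068930. The number of members called in PENN was 3 whichever replicate was left out, 2 with the filter at 5 CPM or with the quasi-likelihood fit of PENN and M82 alone, neither of which tested Solyc12g009220, 3 with DESeq2 on PENN and M82 alone and 4 at an adjusted p of 0.05. The number of member and line combinations called, 9, was 2 with the quasi-likelihood test on each genotype with M82 alone, 4 with DESeq2 on each genotype with M82 alone, 20 (11 higher and 9 lower, against 6 and 3) with the average of ILs from other chromosomes as reference and 15 at an adjusted p of 0.05. The test against the average of ILs took that average as known, so its 20 is not comparable with the other counts. The share over all genes is given for the main fit only, so the counts under the alternatives cannot be read against one. Leaving out a replicate gave between 5 and 11 combinations, the lowest without M82 replicate 3. The replicate block gave 13, lost none of the 9 and changed no call in PENN. The number of members that differ between replicate numbers, 5, ranged from 3 to 5 when a number was left out (3 without replicate 1 and 3 without replicate 2). No result turned its direction and was called under an alternative.

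The calls of Solyc01g005440 in IL3-5 and Solyc06g068930 in IL4-4 held in all 16 alternatives. The others were lost in 1 to 9 of their alternatives, and the cause was not tested beyond the libraries named. Depth limits the scarce members: M82 held 3 reads of Solyc12g009220. DESeq2 gave no adjusted p for Solyc12g009220 in IL8-1-5. The alternatives for a list of further jasmonate genes were not run.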
